A study of Homo sapiens with 52 samples.

Results

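SUM159PT cells carrying the hairpin shNRP1#5 were compared directly with SUM159PT cells carrying the hairpin shNRP1#3. The 6 samples concerned, 3 for each hairpin, were taken by their gene count columns from the 52 samples of the series. Both hairpins target NRP1, so the comparison asks in which genes a pair of knockdowns of the same gene differ.

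SUM159PT is an established claudin-low, triple-negative breast cancer cell line. All groups of shRNA cells were transduced with pLKO.1 lentivirus, selected with puromycin, and lysed 48 hrs after seeding, and the control hairpin shNT targets no human gene. The 3 samples of a group are consecutive passages, and the methods name no separate transductions, so p-values measure the spread between passages, and the effect of a hairpin cannot be told apart from that of the transduced population that carries it. For comparison the series also holds SUM159PT cells harvested 72 hrs after transfection with 20 nM siNRP1#5 (2 samples), siNRP1#3 (3 samples) or the non-targeting control siNT (3 samples). It further holds MDA-MB-231 cells, another claudin-low breast cancer line, with the same hairpins or shNT (3 samples each). Levels in siNT and shNT control cells of HS578T, a further claudin-low breast cancer line, were used for markers and as a reference.

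NRP1 encodes neuropilin-1, a cell surface co-receptor that has no kinase of its own. It binds class 3 semaphorins and VEGF family ligands and passes their signals on through plexins, VEGF receptors and other receptor tyrosine kinases. Shorter transcripts, which end in an intron, encode soluble neuropilin-1 that binds ligand without a transmembrane part. An shRNA is processed to a short duplex whose guide strand directs cleavage of the matching mRNA, and guide strands are also known to lower other mRNAs whose 3′ UTR pairs with the guide's seed.

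The target sites are shown because the hairpins differ in which NRP1 transcripts they can reach. They are written as the sense strand, 5′ to 3′, with capitals for the 7 bases that would face the guide's bases 2 to 8 if the guide begins opposite the last base of the site. How either hairpin is cut was not measured.
shNRP1#3: gctgtggatgacaTTAGTATt
shNRP1#5: cagccttgaatGCACTTAt
The shNRP1#3 site lies at chr10:33185659-33185679 (GRCh38, minus strand) in coding exon 15 of the 17 exons of ENST00000374867, the main transmembrane transcript, and 4 of the 14 annotated NRP1 transcripts hold it, all of them transmembrane. The shNRP1#5 site lies upstream at chr10:33263779-33263797 in coding exon 4, and 9 of the 14 transcripts hold it, the 4 transmembrane and 5 soluble ones.

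Expected counts in the 6 libraries added up to between 33144200 and 57628877. Replicates of a group differed well beyond counting error, with a chi-square per degree of freedom of 68.8 to 143, and no library was a copy of another. Markers of the line mostly fitted its name, with exceptions. VIM, a mesenchymal intermediate filament, stood at 4918 to 6977 CPM, the usual counts scaled to a common library size, while CLDN3, ESR1 and PGR stayed under 0.12 CPM, although ERBB2 was present at 73.0 to 87.0 CPM. SNAI1 stood at 13.0 to 31.3 CPM and ITGA6 at 144 to 164 CPM in the 6 libraries. CLDN4, which claudin-low cells have little of, stood at 0.743 to 1.50 CPM with shNRP1#3 but at 17.9 to 34.3 CPM with shNRP1#5. CLDN7, another such gene, stood at 0.0774 to 0.1945 CPM and at 0.119 to 1.10 CPM, with overlap. Its log2 fold change was 2.45, with an adjusted p of 0.0811 in edgeR's quasi-likelihood test. The fat cell marker ADIPOQ was listed at 0 in all 6 libraries. The leukocyte marker PTPRC stood at 5.59 to 7.43 CPM with shNRP1#3 and at 12.7 to 24.3 CPM with shNRP1#5, with an adjusted p of 0.127 in edgeR's quasi-likelihood test. The endothelial marker PECAM1 was present too, at 11.4 to 38.5 CPM with shNRP1#3, 8.06 to 27.3 CPM with shNRP1#5 and 12.0 to 37.2 CPM with shNT. Markers of the other lines in the series, taken from their control samples, stood at medians of 2.15% or less of their level in those lines. The median of 39 HS578T markers was 0 to 0.041% of their level in HS578T with shNRP1#3 and 0.0999 to 0.116% with shNRP1#5, and that of 5 MDA-MB-231 markers was 0.0629 to 0.777% and 0.454 to 2.15%. With shNT these medians were 0.0756 to 0.0934% and 0.162 to 0.493%. Replicates 1 and 2 of shNRP1#5, at 1.21 and 2.15%, lay above every shNT and shNRP1#3 library in the MDA-MB-231 markers. The part that these markers play in the differences below was not tested.

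NRP1 was lower with shNRP1#5 than with shNRP1#3, and lower with both than with shNT. NRP1 stood at 129, 82.0 and 75.6 CPM in replicates 1, 2 and 3 of shNRP1#3 and at 53.03, 41.8 and 49.5 CPM in those of shNRP1#5, against 272, 237 and 203.3 CPM with shNT. The 3 groups did not overlap, and replicate 1 of shNRP1#3 kept the most NRP1 of the 6 knockdown libraries. The log2 fold change between the hairpins was -0.99 ± 0.30 (SE), with an adjusted p of 0.0461. This call did not survive the removal of any one of the 6 libraries: the log2 fold change then lay between -1.13 and -0.72 and the adjusted p between 0.0503 and 0.245, the latter without shNRP1#3 replicate 1. Against shNT the log2 fold changes were -1.31 for shNRP1#3 (adjusted p = 0.0342) and -2.30 for shNRP1#5 (adjusted p = 0.000305). In bulk RNA, fewer cells with NRP1 and less NRP1 in each cell cannot be told apart.

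Soluble and transmembrane transcripts were both lower with shNRP1#5. In TPM, which account for transcript length, the 5 soluble transcripts together stood at 12.2, 9.80 and 8.31 TPM with shNRP1#3 and at 2.89, 0.49 and 2.64 TPM with shNRP1#5. With shNT they stood at 17.3, 15.7 and 7.48 TPM, a range that includes the shNRP1#3 values and lies above those of shNRP1#5. The means were 74.8% of the shNT mean with shNRP1#3 and 14.9% with shNRP1#5. The 4 transmembrane transcripts stood at 28.6, 13.9 and 15.6 TPM with shNRP1#3, at 12.3, 9.58 and 10.4 TPM with shNRP1#5 and at 51.3, 47.2 and 41.8 TPM with shNT, which left 41.4% and 22.9% of the shNT mean. On the log2(TPM + 0.1) scale shNRP1#5 differed from shNRP1#3 by -2.58 in the soluble and by -0.78 in the transmembrane transcripts, and whether these sizes differ was not tested. Both pairs of groups were without overlap, and both gave an exact two-sided permutation p of 0.1, the smallest that 3 against 3 samples allow.

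In the make-up of NRP1 mRNA, the share of a soluble transcript differed in the same way. ENST00000374822, a soluble transcript, made up 18.03, 24.1 and 24.1% of NRP1 mRNA in the shNRP1#3 replicates and 10.0, 2.33 and 11.8% in those of shNRP1#5, with means of 22.1 and 8.07% (exact permutation p = 0.1). With shNT its share was 14.6, 15.8 and 8.79%, between the values of the hairpins in the mean. ENST00000374867 made up 35.5 to 44.8% with shNRP1#3 and 44.03 to 65.7% with shNRP1#5, which overlapped. ENST00000413802, which holds the site of neither hairpin, made up 18.5 to 23.4% with shNRP1#3 and 4.06 to 32.5% with shNRP1#5. Its mean TPM was nevertheless 41.3% of the shNT mean with shNRP1#3 and 18.8% with shNRP1#5. Transcript values are estimates from reads that transcripts partly share, and how well reads were assigned was not tested.

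**Figure D1:**
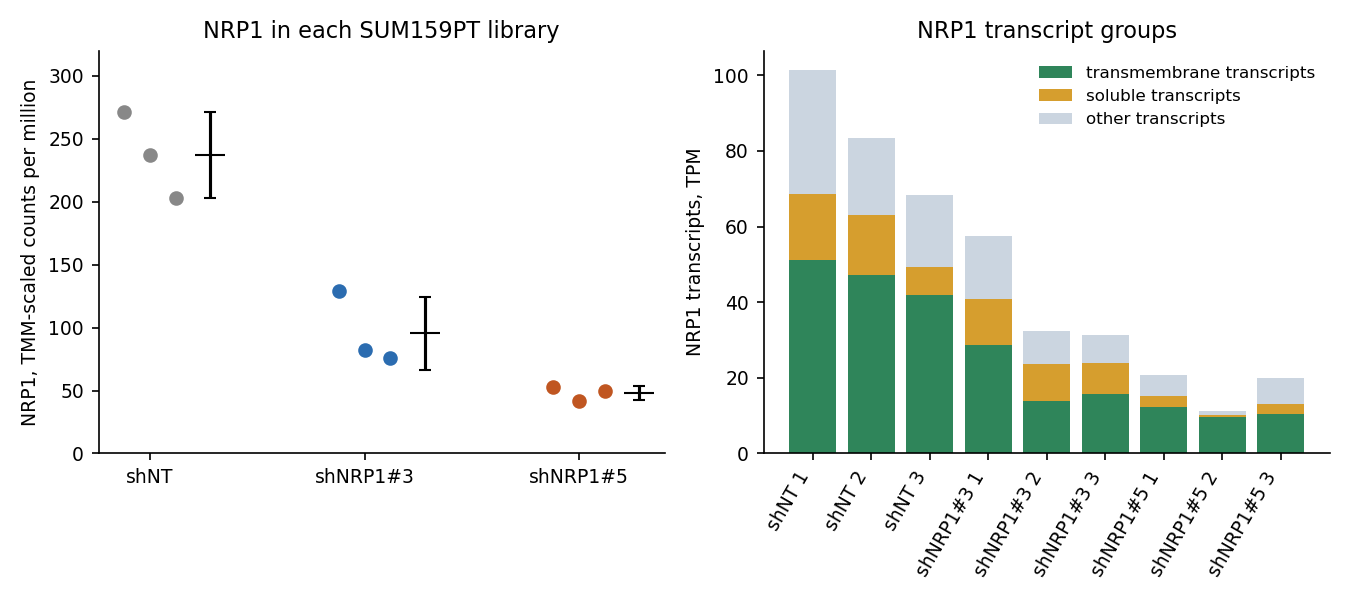
NRP1 in the 9 SUM159PT shRNA libraries. Left, TMM-scaled CPM of the gene, with points for libraries and bars for the mean ± SD of each group (n = 3); the shNRP1#5 points, from 41.8 to 53.03, lie under those of shNRP1#3, from 75.6 to 129. Right, stacked TPM of transmembrane, soluble and other NRP1 transcripts in each library; the soluble layer is 0.49 to 2.89 TPM with shNRP1#5 and 8.31 to 12.2 TPM with shNRP1#3.

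Across the transcriptome the hairpins differed in many genes besides NRP1. Of 20067 genes tested, 985 were higher with shNRP1#5, which is 4.91%, and 762 were lower, which is 3.80%, at an adjusted p under 0.05. Most of these differences were large, with 862 of the higher and 555 of the lower genes at least 2-fold apart. Among the higher genes, 500 averaged 5 CPM or more in the group where they were higher, and among the lower genes 553 did. The groups did not overlap in 962 of the higher and 752 of the lower genes, where 29.6% of all genes tested were without overlap. The median log2 fold change over all genes was -0.01, which TMM scaling sets close to 0 by its construction. At an unadjusted p under 0.05 in edgeR, 4203 of the 20067 genes passed, in either direction.

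The counts depended on single libraries. Without shNRP1#3 replicate 1, the number of higher genes fell to 519 and that of lower genes to 410. Higher genes numbered 641 without shNRP1#3 replicate 3 and 655 without shNRP1#5 replicate 1. Lower genes numbered 471 without shNRP1#3 replicate 2, 465 without shNRP1#5 replicate 1 and 366 without shNRP1#5 replicate 2. Each of these fits has 1 sample fewer and therefore less power. Of the 131 genes named by rule or described as list members here, 77 kept their call without any one of the 6 libraries, 54 lost it in at least 1 of these fits, and none changed direction.

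**Figure D2:**
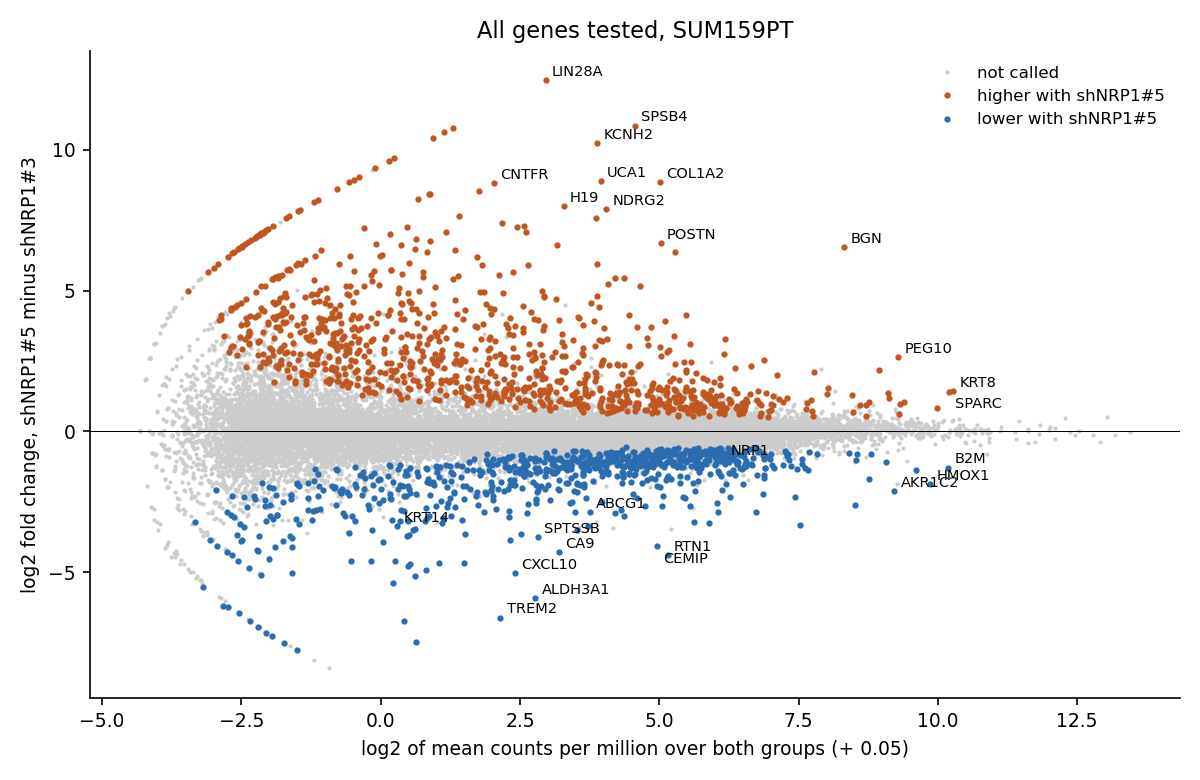
All 20067 genes tested. The horizontal axis is the log2 of the mean CPM over both hairpin groups plus 0.05, and the vertical axis the log2 fold change, shNRP1#5 minus shNRP1#3. Orange and blue points are the 985 higher and 762 lower genes, and LIN28A at the top and TREM2 at the bottom mark the ends of the named range at 12.46 and -6.60.

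The genes with the highest fold changes were near or at 0 with shNRP1#3 and plainly present with shNRP1#5. LIN28A, an RNA-binding protein of embryonic cells that blocks let-7 maturation, had no count in any shNRP1#3 or shNT library and stood at 14.7, 20.4 and 11.3 CPM in the shNRP1#5 replicates. It was at least 719-fold higher, taking a floor of 3 counts over the shNRP1#3 group (adjusted p = 0.00011). SPSB4, a substrate adaptor of an E3 ubiquitin ligase, rose to 50.3, 63.5 and 27.8 CPM from 3 counts in all of shNRP1#3, a ratio of 2199 with a 95% counting interval of 752 to 10670. KCNH2, a voltage-gated potassium channel, reached 46.5, 29.5 and 12.0 CPM from 3 counts, a ratio of 1348 with an interval of 461 to 6539. These intervals cover counting error only.

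COL1A2, one of the chains of type I collagen, stood at 0.0928, 0.114 and 0.222 CPM with shNRP1#3 and at 89.1, 60.2 and 43.0 CPM with shNRP1#5 (log2 fold change 8.85 ± 0.76, adjusted p = 4.53e-06). UCA1, a long noncoding RNA linked to bladder cancer, stood at no more than 0.167 CPM with shNRP1#3 and at 14.3, 57.4 and 20.5 CPM with shNRP1#5. H19, an imprinted long noncoding RNA, ranged from 0 to 0.139 CPM with shNRP1#3 and reached 39.2, 6.90 and 11.8 CPM with shNRP1#5. In each of these genes the 3 shNRP1#5 libraries lay above every shNRP1#3 library, although those of UCA1 and H19 were far apart among themselves.

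NDRG2, a stress-responsive gene often silenced in tumours, differed from shNT in opposite directions with the hairpins. It stood at 3.40, 3.69 and 2.86 CPM with shNT, at 0.17, 0.114 and 0.111 CPM with shNRP1#3 and at 44.5, 37.1 and 17.2 CPM with shNRP1#5. The log2 fold changes against shNT were -4.57 (adjusted p = 0.000372) and 3.31 (adjusted p = 0.000397). The remaining genes of the 10 highest were CNTFR, the receptor chain for ciliary neurotrophic factor, ALPP, a placental alkaline phosphatase with near-identical relatives among which reads may be misassigned, and ADAMTS4, a protease that cuts aggrecan. Each had 2 or 3 counts in all of shNRP1#3 and at least 2.17 CPM in every shNRP1#5 library.

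Genes at the other end of the range were low with shNRP1#5. TREM2, a lipid receptor of macrophages and microglia, stood at 2.66, 17.2 and 6.20 CPM with shNRP1#3 and at 0.154, 0.0376 and 0.0715 CPM with shNRP1#5 (log2 fold change -6.60 ± 0.86, adjusted p = 0.00016). With shNT it stood between, at 0.432 to 0.967 CPM. ALDH3A1, an aldehyde dehydrogenase, followed the same order, at 6.93, 25.7 and 7.45 CPM with shNRP1#3, 0.462, 0.0752 and 0.119 CPM with shNRP1#5 and 1.81 to 5.46 CPM with shNT. In both genes replicate 2 of shNRP1#3 was the highest library.

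RTN1, a reticulon of the endoplasmic reticulum, was the most tightly separated of the 10 lowest in terms of its p-value. It stood at 77.2, 82.8 and 43.1 CPM with shNRP1#3, at 4.40, 2.44 and 2.91 CPM with shNRP1#5 and at 17.9 to 34.7 CPM with shNT (log2 fold change -4.38 ± 0.37, adjusted p = 4.53e-06). CEMIP, which takes part in hyaluronan breakdown, stood at 31.6, 104 and 40.2 CPM against 3.54, 1.99 and 4.96 CPM. CA9, a hypoxia-inducible carbonic anhydrase, stood at 15.3, 26.99 and 9.81 CPM against 0.815, 0.94 and 0.906 CPM. The chemokines CXCL10 and CXCL11, both ligands of CXCR3, were lower by 5.02 and 3.84 on the log2 scale, and TSPAN7, a tetraspanin, by 4.66.

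SPTSSB, a small subunit of serine palmitoyltransferase, and FCRLA, an Fc receptor-like protein of B cells, were higher with shNRP1#3 than with shNT. SPTSSB stood at 9.92, 21.4 and 8.00 CPM with shNRP1#3, at 1.45, 0.808 and 0.668 CPM with shNRP1#5 and at 0.391, 1.13 and 0.81 CPM with shNT, so that shNRP1#5 and shNT overlapped. FCRLA stood at 12.7, 9.76 and 9.25 CPM, at 0.748, 1.18 and 0.596 CPM and at 2.33, 1.23 and 2.96 CPM. For shNRP1#3 against shNT the log2 fold changes were 4.07 (adjusted p = 0.00065) and 2.28 (adjusted p = 0.0108), and that of TREM2 was 3.79 (adjusted p = 0.011).

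**Figure D3:**
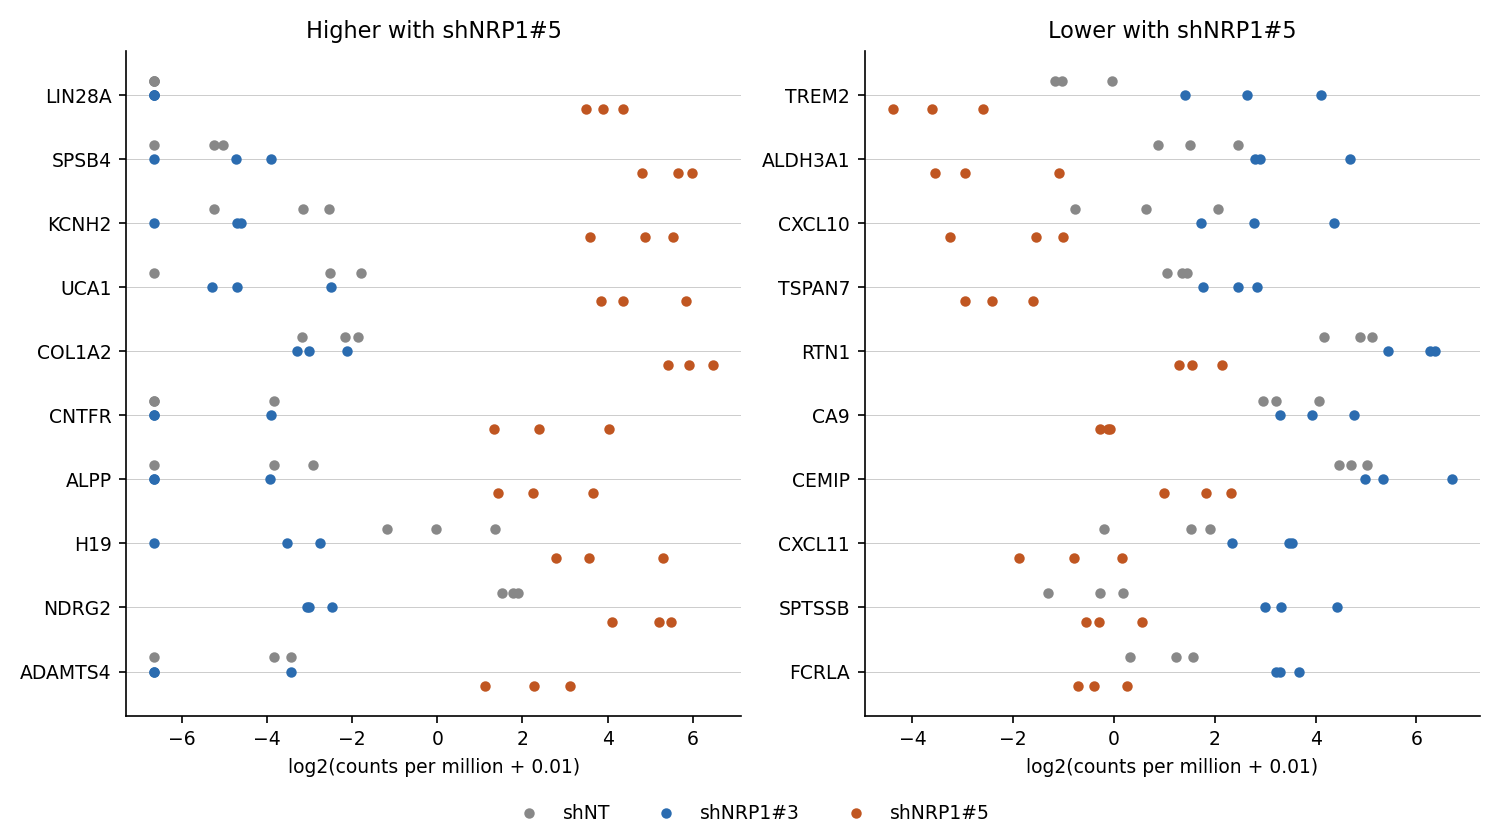
The 10 genes with the highest and the 10 with the lowest fold change among called genes that averaged 5 CPM or more and did not overlap, in every SUM159PT shRNA library. The horizontal axis is log2(CPM + 0.01), and each point is a library of shNT (grey), shNRP1#3 (blue) or shNRP1#5 (orange). LIN28A lies at the left edge, at 0 counts, in all shNT and shNRP1#3 libraries, and for NDRG2 the grey points lie between the blue and the orange ones.

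Among abundant genes the differences were smaller. KRT8, a simple-epithelial keratin, stood at 506, 578 and 911 CPM with shNRP1#3 and at 1568, 1831 and 2024 CPM with shNRP1#5 (log2 fold change 1.44 ± 0.26, adjusted p = 0.00176), with shNT between at 1021 to 1331 CPM. SPARC, a collagen-binding matrix protein, stood at 673, 597 and 650 CPM against 1643, 1902 and 1569 CPM (1.41 ± 0.22, adjusted p = 0.000534). PEG10, an imprinted gene derived from a retrotransposon, stood at 213, 160 and 144 CPM against 1470, 1166 and 604 CPM, and its shNT values of 164 to 180 CPM lay within the shNRP1#3 range. LASP1, an actin-binding LIM protein, stood at 383 to 483 CPM against 762 to 1115 CPM.

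Lower abundant genes included B2M, described with MHC class I below, the haem oxygenase HMOX1 and the aldo-keto reductase AKR1C2. HMOX1 stood at 2035, 1303 and 1045 CPM with shNRP1#3 and at 251, 489 and 453 CPM with shNRP1#5 (log2 fold change -1.88 ± 0.46, adjusted p = 0.0169). Its adjusted p rose to as much as 0.08 on leaving out shNRP1#3 replicate 1 or shNRP1#5 replicate 1, which ended the call, with log2 fold changes from -2.07 to -1.57 over the 6 such fits. AKR1C2 stood at 1012, 1385 and 507 CPM against 227, 306 and 135 CPM (-2.12 ± 0.49, adjusted p = 0.0121), and its call was lost without shNRP1#5 replicate 3 (adjusted p = 0.0529).

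Set beside shNT, shNRP1#5 stood farther away than shNRP1#3 in number of genes. At an adjusted p under 0.05, 281 genes (1.40%) differed between shNRP1#3 and shNT, 68 higher and 213 lower, and 1192 genes (5.94%) between shNRP1#5 and shNT, 651 higher and 541 lower. These comparisons share the shNT samples and each shares samples with the direct comparison, so their agreement is not a result. Both shares moved with single libraries, which when left out gave 0.483 to 1.03% for shNRP1#3 and 2.31 to 6.08% for shNRP1#5.

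Members of the NRP1 co-receptor system differed in both directions. Of 24 genes tested, 6 were higher (25.0%, against 4.91% of all genes) and 2 lower (8.33%, against 3.80%) with shNRP1#5, and the median log2 fold change was 0.22. One of the 2 lower genes was NRP1 itself, the target of both hairpins. Among the semaphorin ligands, SEMA3B rose from 1.73, 2.07 and 1.81 CPM with shNRP1#3 to 16.99, 23.1 and 10.9 CPM with shNRP1#5 (log2 fold change 3.19 ± 0.34, adjusted p = 3e-05). The shNT values of SEMA3B, 5.63 to 11.6 CPM, lay above all shNRP1#3 values, and shNRP1#3 was lower than shNT by 2.18 on the log2 scale (adjusted p = 0.00194). SEMA3D and SEMA3E, at no more than 1.10 CPM with shNRP1#3, were higher by 3.27 and 3.38. SEMA3C, the most abundant of the 4, went the other way, at 218, 145 and 117 CPM with shNRP1#3, 59.8, 57.5 and 47.7 CPM with shNRP1#5 and 53.5 to 55.5 CPM with shNT (log2 fold change -1.54 ± 0.31, adjusted p = 0.00428).

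Receptors that act with NRP1 also differed. PLXND1, a plexin that binds SEMA3E, stood at 10.3, 26.7 and 18.2 CPM with shNRP1#3 and at 189, 85.8 and 97.5 CPM with shNRP1#5 (2.76 ± 0.50, adjusted p = 0.00222). PDGFRB, a receptor for platelet-derived growth factor, stood at 8.19, 21.9 and 9.42 CPM against 129, 44.1 and 47.2 CPM (2.48 ± 0.50, adjusted p = 0.00486). For both genes the shNT libraries, at 33.2 to 79.7 and 28.1 to 84.2 CPM, lay above every shNRP1#3 library. PGF, placental growth factor, had a log2 fold change of 2.83 ± 0.70 (adjusted p = 0.0178), but the call was lost, with an adjusted p of up to 0.0887, without shNRP1#3 replicate 1, shNRP1#3 replicate 3 or shNRP1#5 replicate 1. NRP2, the paralogue of NRP1, had a log2 fold change of -0.42 ± 0.35 (adjusted p = 0.571).

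MHC class I and antigen processing was the list with the largest called share. Of 15 genes, 10 were lower with shNRP1#5 (66.7%, where 3.80% of all genes were), none was higher in edgeR, at an unadjusted p under 0.05 or in DESeq2, and the median log2 fold change was -0.82. HLA-B, a classical class I heavy chain, stood at 506, 760 and 610 CPM with shNRP1#3, at 111, 89.5 and 108 CPM with shNRP1#5 and at 376 to 447 CPM with shNT (log2 fold change -2.60 ± 0.39, adjusted p = 0.000526). HLA-F, a nonclassical heavy chain, stood at 26.6, 45.8 and 37.9 CPM, at 5.53, 4.40 and 3.77 CPM and at 22.1 to 27.5 CPM (-3.01 ± 0.54, adjusted p = 0.00205). In both genes the shNRP1#5 libraries lay under all others, while shNRP1#3 and shNT overlapped for HLA-F and not for HLA-B.

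HLA-C and B2M, the light chain, were lower by 1.31 and 1.28 on the log2 scale, and each lost its call in 5 of the 6 fits with a library left out (adjusted p up to 0.0726 and 0.0977). Other called members included ERAP1, which trims peptides, PSMB8 and PSMB9 of the immunoproteasome, the peptide transporter TAP1 and the transactivator NLRC5. HLA-B and HLA-F kept their call without any one library, whereas the number of called members fell to between 2 and 6. ERAP1 and PSMB9 lost the call in 5 and 4, and NLRC5, TAP1 and PSMB8 in all 6 of these fits, the last 3 with adjusted p-values of 0.0501 to 0.17. HLA genes resemble each other, and reads were shared out among them by estimation.

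Other immune lists held fewer called genes. Of 29 interferon-stimulated genes, 3 were lower (10.3%, against 3.80% of all genes) and none higher, with a median log2 fold change of -0.66. At an unadjusted p under 0.05 in edgeR 12 were lower and 1 higher, and in DESeq2 5 were lower and 1 higher. Of all 20067 genes tested, 4203 passed that unadjusted p in either direction. OAS2, which makes the activator of RNase L, stood at 16.7, 24.0 and 13.3 CPM with shNRP1#3 and at 6.93, 2.99 and 2.55 CPM with shNRP1#5, and MX2, an antiviral GTPase, at 4.92 to 10.4 CPM against 1.09 to 2.93 CPM. The third, ISG20, overlapped between the groups and lost its call without shNRP1#3 replicate 2 or 3 or shNRP1#5 replicate 2 or 3 (adjusted p up to 0.18). Of 25 chemokines and cytokines, CXCL10 and the interleukin-1 antagonist IL1RN were lower, and CXCL12, the CXCR4 ligand, had a log2 fold change of 2.55 ± 0.62 that lost its call without replicate 1 of either hairpin (adjusted p up to 0.0811). Called higher and lower were 4 and 8% of that list, against 4.91 and 3.80% of all genes. At an unadjusted p under 0.05 in edgeR 11 of the chemokines and cytokines were lower and 3 higher, and in DESeq2 5 were lower and 2 higher. RELA, a subunit of NF-kB, was the 1 called gene of 16 in its list (6.25%, against 3.80% of all genes called lower). In that list 7 genes were lower and none higher at an unadjusted p under 0.05 in edgeR, and in DESeq2 5 were lower and none higher. RELA stood at 108, 90.2 and 121 CPM with shNRP1#3, 53.5, 40.5 and 67.0 CPM with shNRP1#5 and 137 to 142 CPM with shNT (-0.99 ± 0.21, adjusted p = 0.00571).

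Among 21 sensors of double-stranded RNA and factors of RNA interference, AGO1, an Argonaute protein that holds guide strands, was lower by 1.18 on the log2 scale (adjusted p = 0.00387). It stood at 50.1, 42.1 and 43.4 CPM with shNRP1#3, at 20.1, 13.3 and 26.7 CPM with shNRP1#5 and at 43.7 to 50.4 CPM with shNT. TARBP2, a partner of Dicer, had a log2 fold change of 0.82 and lost its call without shNRP1#3 replicate 1 (adjusted p = 0.0557), and TICAM1, the adaptor of TLR3, had one of -1.07 and lost its call without shNRP1#5 replicate 1 or 2 (adjusted p up to 0.0567). Called higher and lower were 4.76 and 9.52% of the list, against 4.91 and 3.80% of all genes.

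**Figure D4:**
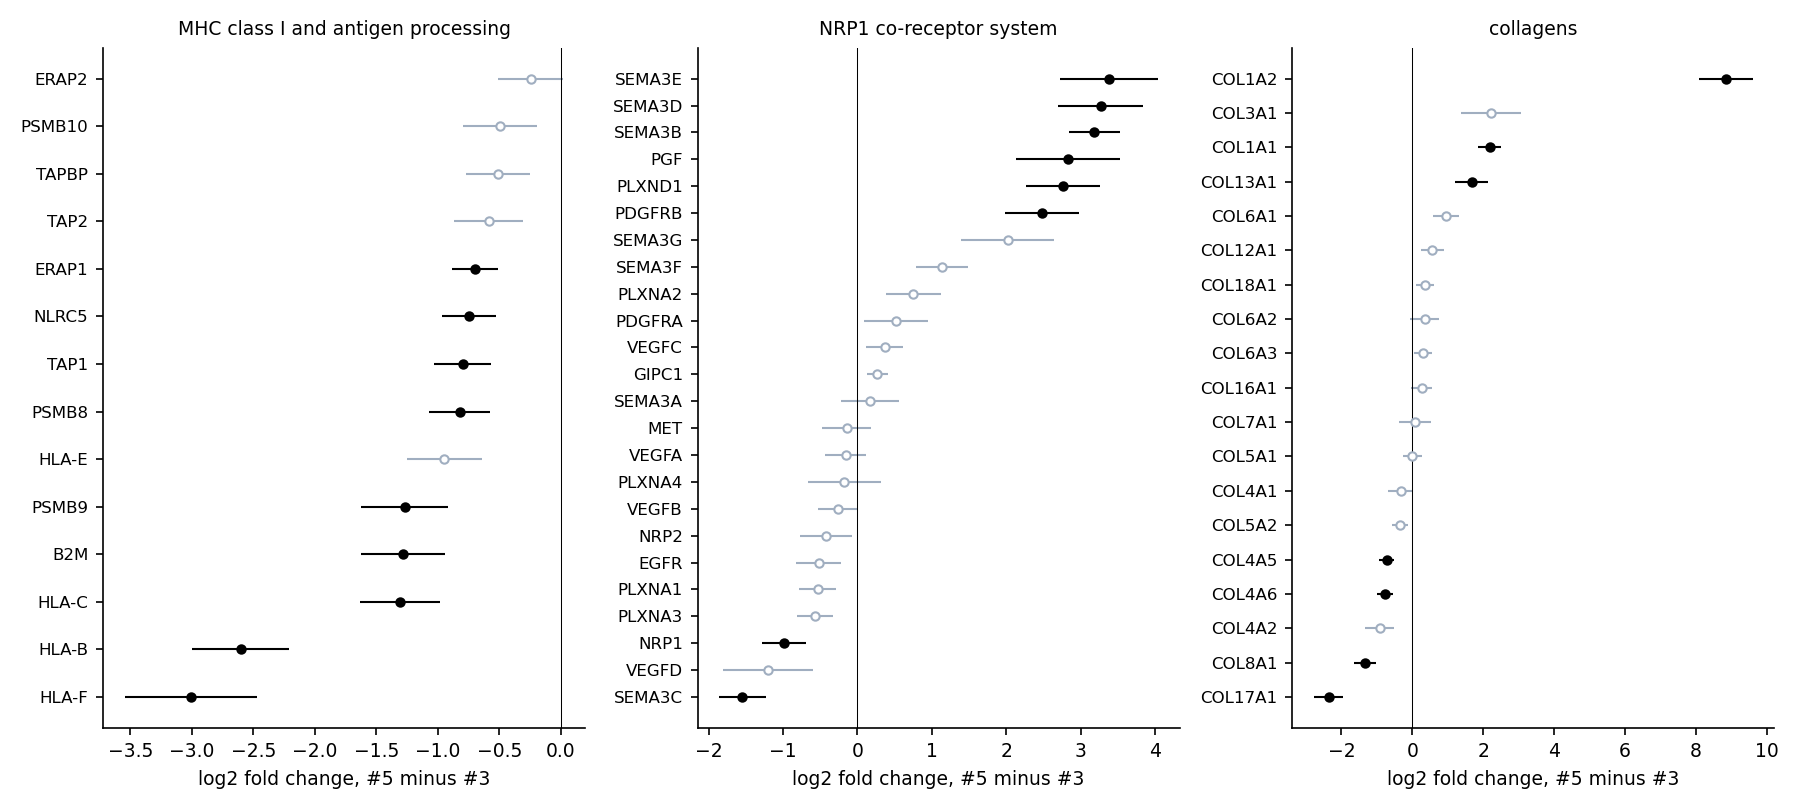
Log2 fold changes, shNRP1#5 minus shNRP1#3, of genes of 3 lists, with bars for the standard error. Filled black points passed an adjusted p of 0.05 and open grey points did not. The 14 MHC class I and antigen processing genes drawn lie left of 0, from -3.01 to -0.25, while the co-receptor genes range from -1.54 to 3.38 and the collagens from -2.36 to 8.85.

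Matrix genes were split. Of 19 collagens, 3 were higher (15.8%, against 4.91% of all genes) and 4 lower (21.1%, against 3.80%) with shNRP1#5. COL1A1, the partner chain of COL1A2, was expressed with both hairpins, at 178, 140 and 215 CPM with shNRP1#3 and 764, 578 and 1081 CPM with shNRP1#5 (log2 fold change 2.18 ± 0.33, adjusted p = 0.000521). COL17A1, a transmembrane collagen of hemidesmosomes, stood at 46.1, 33.5 and 42.1 CPM against 5.77, 5.86 and 12.1 CPM (-2.36 ± 0.41, adjusted p = 0.00167). These 3 genes kept their calls without any one library. COL8A1 (-1.34) lost its call without shNRP1#3 replicate 1 (adjusted p = 0.0578), COL13A1 (1.67) in 5 of the 6 such fits, and the basement membrane collagens COL4A5 and COL4A6 (-0.72 and -0.77) in all 6, with adjusted p-values up to 0.162.

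Of 18 matrix glycoproteins and lysyl oxidases, 4 were higher (22.2%, against 4.91% of all genes) and none lower in edgeR, while 1 was lower in DESeq2 and 1 at an unadjusted p under 0.05. BGN, the proteoglycan biglycan, stood at 0.99, 8.46 and 11.1 CPM with shNRP1#3, at 899, 368 and 626 CPM with shNRP1#5 and at 26.1, 133 and 133 CPM with shNT, so that the 3 groups did not overlap (log2 fold change 6.53 ± 0.95, adjusted p = 0.000492). POSTN, periostin, stood at no more than 0.71 CPM with shNRP1#3, at 94.7, 52.9 and 45.5 CPM with shNRP1#5 and at no more than 1.42 CPM with shNT. LUM, lumican, was listed at 0 in all shNRP1#3 libraries and at 2.86, 0.771 and 0.119 CPM with shNRP1#5. LOX, a collagen cross-linking enzyme, had a log2 fold change of 1.28 that lost its call in 5 of the 6 fits with a library left out (adjusted p up to 0.174). In HS578T shNT cells COL1A2 averaged 2332 CPM, BGN 971 CPM, SPARC 2196 CPM and POSTN 72.2 CPM. The HS578T markers given above were at 0.116% or less of their HS578T level in the shNRP1#5 libraries, and POSTN in those libraries was at 45.5 to 94.7 CPM.

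Adhesion and protease genes were mostly not called. Called higher and lower were 4.76 and 9.52% of integrins and laminins and 5.56% each of proteases and inhibitors. Over all genes the shares were 4.91 and 3.80%. Of 21 integrins and laminins, LAMA4, a laminin chain of vessels and mesenchyme, was higher (4.46 ± 0.64, adjusted p = 0.00035) and LAMA3, a chain of laminin-332, lower (-1.13 ± 0.23, adjusted p = 0.00451). ITGB4, the hemidesmosome integrin, stood at 42.8, 61.3 and 61.9 CPM against 20.1, 8.93 and 4.58 CPM (-2.30 ± 0.56), and lost its call without shNRP1#5 replicate 2 or 3 (adjusted p up to 0.0804). Of 18 proteases and inhibitors, MMP9, a gelatinase, was higher at a low level of 0.668 to 1.05 CPM, and TIMP1, an inhibitor of metalloproteinases, stood at 520, 554 and 620 CPM against 299, 312 and 357 CPM. The TIMP1 call, at a log2 fold change of -0.81, was lost without shNRP1#3 replicate 3 or shNRP1#5 replicate 1 or 2 (adjusted p up to 0.0739). Of 14 transcription factors of epithelial-mesenchymal transition and mesenchymal genes, SPARC alone was called (7.14%, against 4.91% of all genes), in DESeq2 too. At an unadjusted p under 0.05 in edgeR 3 were higher and 2 lower, where 4203 of all 20067 genes passed in either direction. ZEB1, a repressor of epithelial genes, had a log2 fold change of -0.95 ± 0.44 (adjusted p = 0.232) and VIM one of 0.03 ± 0.21 (adjusted p = 0.964).

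Epithelial junction genes that were called were all higher with shNRP1#5, 4 of 14 (28.6%, against 4.91% of all genes), with a median log2 fold change of 1.46 over the list. None was lower at an unadjusted p under 0.05 in edgeR or in DESeq2. CLDN4, a tight junction claudin, stood at 0.743, 1.14 and 1.50 CPM with shNRP1#3, at 26.1, 34.3 and 17.9 CPM with shNRP1#5 and at 1.42 to 1.79 CPM with shNT (4.55 ± 0.43, adjusted p = 9.15e-06). OCLN, occludin, and PKP2, a desmosomal plakophilin, were higher by 2.39 and 3.27 on the log2 scale at levels under 6 CPM. CGN, cingulin, had a log2 fold change of 3.67 and lost its call without replicate 1 or 2 of either hairpin (adjusted p up to 0.137). Low CLDN4 is itself one of the traits of claudin-low cells. CDH1, the epithelial cadherin that such cells also lack, stood at 0.0556 to 0.0774 CPM with shNRP1#3 and at 0.119 to 0.432 CPM with shNRP1#5, without overlap (adjusted p = 0.106).

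Keratins went both ways, 3 higher and 3 lower of 12 (25% each, against 4.91 and 3.80% of all genes). Besides KRT8, its partner KRT18 (0.97 ± 0.18, adjusted p = 0.00291) and the hair keratin KRT81 (4.15 ± 0.67, adjusted p = 0.00104) were higher. The basal and stress keratins KRT6A (-4.69 ± 0.98), KRT16 (-2.12 ± 0.48) and KRT14 (-3.36 ± 0.85) were lower. KRT16 stood at 4.77, 5.42 and 8.84 CPM with shNRP1#3 and at 1.28, 1.97 and 1.10 CPM with shNRP1#5. KRT14 lost its call without shNRP1#3 replicate 3 or any shNRP1#5 replicate (adjusted p up to 0.108), and keratin genes of a type resemble each other in sequence.

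In the TGF-beta list, 2 of 17 genes were higher and 2 lower (11.8% each, against 4.91 and 3.80% of all genes). TGFBR2, the receptor that binds the ligand first, stood at 379, 376 and 248 CPM with shNRP1#3, at 41.1, 23.9 and 35.0 CPM with shNRP1#5 and at 229 to 303 CPM with shNT (log2 fold change -3.33 ± 0.29, adjusted p = 4.53e-06). Its signalling partner TGFBR1 had a log2 fold change of 0.99 ± 0.28 that lost its call in all 6 fits with a library left out (adjusted p up to 0.16), and the calls of LTBP2 (-1.30), a protein of matrix microfibrils, and LRRC32 (3.40), which holds latent TGF-beta at the cell surface, were lost in 4 and 5 of them. Of 17 BMP and ID genes, 5 were higher (29.4%, against 4.91% of all genes) and none lower in edgeR, while 1 was lower in DESeq2 and 2 at an unadjusted p under 0.05. SMAD9, a signal transducer of BMP receptors, kept its call throughout at a level under 1.2 CPM (2.66 ± 0.55, adjusted p = 0.00545). BMP4, a ligand, stood at 5.45, 7.75 and 4.70 CPM against 53.2, 56.9 and 38.0 CPM (3.05 ± 0.71, adjusted p = 0.0134), but lost its call without shNRP1#3 replicate 1 or 3 (adjusted p up to 0.0633). The number of called genes in the list was 1 without shNRP1#3 replicate 1 and 2 without shNRP1#3 replicate 2.

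Wnt genes were called in 6 of 23 cases, 4 higher and 2 lower (17.4 and 8.7%, against 4.91 and 3.80% of all genes). WNT10A, a ligand, stood at 1.16, 2.30 and 0.611 CPM with shNRP1#3 and at 66.7, 59.8 and 19.6 CPM with shNRP1#5, with shNT at 0.314 to 1.05 CPM (5.17 ± 0.57, adjusted p = 4.92e-05). WNT5B, another ligand, was higher by 2.86, the receptor FZD2 higher by 1.47 and the receptor FZD6 lower by 1.50 on the log2 scale. NKD1 (3.36) and NKD2 (-3.15), both inhibitors that bind Dishevelled, lost their calls in 4 and 5 of the 6 fits with a library left out. Of 14 Notch genes, the ligand JAG2 (1.97 ± 0.42) and the receptor-modifying enzyme LFNG (2.14 ± 0.47) were higher, and DLL1 (-2.04) lost its call without shNRP1#3 replicate 2 or shNRP1#5 replicate 2 or 3. Called higher and lower were 14.3 and 7.14% of the Notch list, against 4.91 and 3.80% of all genes.

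Growth factor ligands held 2 higher and 3 lower genes of 15 (13.3 and 20%, against 4.91 and 3.80% of all genes). PDGFB, a PDGFRB ligand, stood at 0.542, 0.114 and 0.445 CPM with shNRP1#3 and at 2.44, 10.5 and 10.2 CPM with shNRP1#5 (4.34 ± 0.74, adjusted p = 0.00146). EREG, an EGF receptor ligand, stood at 140, 37.5 and 87.3 CPM against 4.73, 7.54 and 16.3 CPM (-3.21 ± 0.58, adjusted p = 0.00218). HBEGF (1.66), TGFA (-0.95) and BTC (-2.25), other EGF receptor ligands, lost their calls in 4 or 5 of the 6 fits with a library left out. Among 16 MAPK feedback genes, the ETS factor ETV1 (-1.63 ± 0.34) and the ephrin receptor EPHA4 (-1.62 ± 0.31) were lower in every such fit, while DUSP5 (1.16), PHLDA1 (0.98) and SPRED1 (-1.01) lost their calls in 5, 5 and 2 of them. Of 17 YAP and TEAD targets, the kinase LATS2 was lower (-1.45 ± 0.25, adjusted p = 0.00155) and the receptor kinase AXL had a log2 fold change of 1.32 that was lost without shNRP1#3 replicate 1 or 2 or shNRP1#5 replicate 3. Among 18 guidance genes, the netrin receptor UNC5C was higher (4.51 ± 0.73) and the netrin NTN4 lower (-1.81 ± 0.34). Of 18 actin and SRF genes, 3 were higher, and the calls of CNN1 (4.03), CNN2 (0.69) and ACTG2 (2.99) were lost in 1, 6 and 4 of the fits with a library left out. Called higher and lower were 12.5 and 18.8% of the MAPK feedback list and 5.88% each of the YAP and TEAD list. For guidance genes the shares were 5.56% each, and for actin and SRF genes 16.7 and 0%, against 4.91 and 3.80% of all genes.

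Hypoxia and glycolysis genes were called in 6 of 25 cases, 2 higher and 4 lower (8 and 16%, against 4.91 and 3.80% of all genes). PFKP, the platelet form of phosphofructokinase, stood at 90.0, 67.1 and 91.6 CPM with shNRP1#3, at 278, 264 and 525 CPM with shNRP1#5 and at 368 to 515 CPM with shNT (2.10 ± 0.25, adjusted p = 7.9e-05), and shNRP1#3 was lower than shNT by 2.43 on the log2 scale (adjusted p = 0.000109). CA12, a membrane carbonic anhydrase like CA9, stood at 324, 330 and 208.2 CPM against 53.9, 43.6 and 73.6 CPM (-2.33 ± 0.30, adjusted p = 0.000129). ADM, the peptide hormone adrenomedullin, was higher by 2.47, and ANKRD37 and ENO2 had log2 fold changes of -1.37 and -1.14 that were lost in 1 and 4 of the fits with a library left out.

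Among 17 NRF2 targets and glutathione genes, 4 were lower (23.5%, against 3.80% of all genes) and 1 higher (5.88%, against 4.91%). None of the called genes kept its call without any one library. The called genes were HMOX1 and AKR1C2, given above, AKR1C1 (-1.08), GCLM, a subunit of glutamate-cysteine ligase (-1.07), and thioredoxin reductase TXNRD1 (1.05). Their adjusted p-values rose to up to 0.192 in the fits with a library left out. AKR1C1 and AKR1C2 are close paralogues between which reads may be misassigned. CDKN1C, an imprinted CDK inhibitor, was the 1 called gene of 18 in its list, at 0.371, 0.568 and 0.417 CPM with shNRP1#3 and 9.20, 25.5 and 8.25 CPM with shNRP1#5 (4.99 ± 0.59, adjusted p = 7.23e-05). CDT1 (0.94) and CCNE1 (0.96), which act at the start of DNA replication, were the called genes of 23 in their list, and IGFBP3 (2.73) and SOX9 (1.09) those of 14 IGF binding proteins and stem cell markers. The calls of these 4 were lost in 5, 6, 1 and 4 of the fits with a library left out. Called higher were 5.56% of the list with CDKN1C and 8.7% of the replication list. For IGF binding proteins and stem cell markers the share was 14.3%, against 4.91% of all genes.

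In 5 lists no gene was called by edgeR. The 15 AP-1 and immediate early genes, 23 mitotic genes and 12 heat shock chaperones held none at an unadjusted p under 0.05 and none in DESeq2 either. Of 24 cholesterol and fatty acid synthesis genes, 5 were higher at an unadjusted p under 0.05 and 2 in DESeq2, with a median log2 fold change of 0.35. Of 22 genes of the unfolded protein and ATF4 response, 4 were lower at an unadjusted p under 0.05 and 1 in DESeq2, with a median of -0.12. Over all 20067 genes tested, 4203 passed an unadjusted p under 0.05 in either direction, so the counts do not set the cholesterol and unfolded protein lists apart. The AP-1, mitotic and heat shock lists, with none, lay under the share of all genes, and whether they differ from it was not tested.

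The siRNA samples gave a separate comparison of the same kind in the same line. siNRP1#5 is listed with the target sequence of shNRP1#5, whereas the listed sequences of siNRP1#3 and shNRP1#3 differ. Between siNRP1#5 and siNRP1#3, 5967 genes differed (29.7%), 3208 higher and 2759 lower. Of the 1747 genes called between the hairpins, 685 (39.2%) were called in the same direction between the siRNAs, 326 higher and 359 lower, and 80 in the opposite direction. The 685 were 11.5% of the genes called between the siRNAs. The difference between the shRNA and the siRNA contrast was itself called in 2003 genes (9.98%).

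LIN28A had no count in any siNT or siNRP1#3 library and stood at 0.762 and 2.38 CPM in the pair of siNRP1#5 libraries (adjusted p = 0.000395). H19 stood at 0 to 0.023 CPM with siNRP1#3 and at 16.3 and 61.0 CPM with siNRP1#5, and NRP1 at 57.8, 31.3 and 60.8 CPM against 7.50 and 13.9 CPM. TGFBR2 was lower by 2.16 (adjusted p = 0.000236), CLDN4 higher by 3.28 (adjusted p = 8.66e-05) and CDKN1C higher by 4.14 (adjusted p = 0.000153) on the log2 scale with siNRP1#5. These genes thus differed in the same direction with the siRNAs and with the hairpins.

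For other genes named above the size or the sign differed. UCA1 was higher by 8.89 with the hairpin and had a log2 fold change of 0.68 with the siRNAs (adjusted p of the difference 0.00606), and for COL1A2 the values were 8.85 and 1.27 (0.000551), for POSTN 6.68 and -0.10 (0.00155), and for ALDH3A1 -5.93 and 0.67 (0.00155). AKR1C2 was lower with shNRP1#5 than with shNRP1#3 (-2.12) and higher with siNRP1#5 than with siNRP1#3 (3.26, adjusted p = 0.000552). It stood at 1091 and 253 CPM with siNRP1#5, 58.7 to 76.7 CPM with siNRP1#3 and 335 to 470 CPM with siNT. Against shNT and siNT, the log2 fold changes of shNRP1#5 and siNRP1#5 were -0.83 and 0.79 for AKR1C2, neither called. For ALDH3A1 they were -3.94 (adjusted p = 0.00404 in edgeR) and -2.46 (0.037), so that gene was lower in both. HLA-B had a log2 fold change of -1.16 with the siRNAs (adjusted p = 0.0508), and B2M one of -0.02 at very unequal siNRP1#5 levels of 5721 and 1738 CPM. The siRNA and shRNA samples also differ in delivery and harvest time.

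Matches of 3′ UTRs to the seeds of the hairpin strands were counted as a description that was chosen after the values were seen. Of the genes tested, 14301 (71.3%) had a 3′ UTR in the annotation used. The letters GCACTTA, on the transcript strand, were found in 9.05% of these 3′ UTRs, in 24.1% of the 677 lower genes and in 6.44% of the 839 higher genes. The shares rose with 3′ UTR length, and in the shortest, middle and longest groups of 3′ UTRs they were 1.38, 5.79 and 20.0% of all genes and 8.19, 22.1 and 37.1% of the lower ones. The letters TTAGTAT, which face the seed of the shNRP1#3 guide, were found in 12.7% of all, 13.1% of the lower and 12.2% of the higher genes. For the passenger strands, CAAGGCT (shNRP1#5) was found in 12.2, 13.4 and 12.8% and TCCACAG (shNRP1#3) in 14.3, 18.2 and 13.2%. The median 3′ UTR was 1274 bases long over all genes and 1413 bases over the lower ones.

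Genes with GCACTTA had a median log2 fold change of -0.22 between the hairpins, against 0.02 for genes without it. The medians were -0.18 and 0.00 for shNRP1#5 against shNT, 0.05 and -0.02 for shNRP1#3 against shNT, and -0.42 and 0.14 for siNRP1#5 against siNRP1#3. In MDA-MB-231 they were -0.05 and -0.03 for shNRP1#5 against shNRP1#3. The part of such matches in any gene's level was not tested.

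Of the lower genes that hold the letters, 4 with a small adjusted p are shown with 10 bases on either side. Capitals mark the match, and the bases come from GENCODE transcripts on GRCh38. The choice did not cover every chromosome, so a gene with a smaller adjusted p may be missing.
RTN1: gcagtcgaccGCACTTAtggtaatcag
TGFBR2: tctttcccctGCACTTAtgttactatt
CYBRD1: tactcacacaGCACTTActatgctcca
KDM1B: aaccttataaGCACTTAgatttaattg
The matches lie at chr14:59596232-59596238 (minus strand) in RTN1, chr3:30692511-30692517 in TGFBR2, chr2:171555667-171555673 in CYBRD1 and chr6:18222180-18222186 in KDM1B, and RTN1 and TGFBR2 each hold 2 of them. CYBRD1, a ferric reductase, stood at 59.8, 57.5 and 42.8 CPM with shNRP1#3 and at 17.9, 16.1 and 17.6 CPM with shNRP1#5 (-1.64 ± 0.19, adjusted p = 7.23e-05). KDM1B, a histone demethylase, stood at 26.0, 18.2 and 20.3 CPM against 4.12, 3.03 and 5.37 CPM (-2.37 ± 0.28, adjusted p = 7.99e-05). For siNRP1#5 against siNRP1#3 the log2 fold changes of RTN1, TGFBR2, CYBRD1 and KDM1B were -1.97, -2.16, -3.00 and -2.12, and for the hairpins in MDA-MB-231 they were -0.29, -0.48, -0.73 and -0.48.

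**Figure D5:**
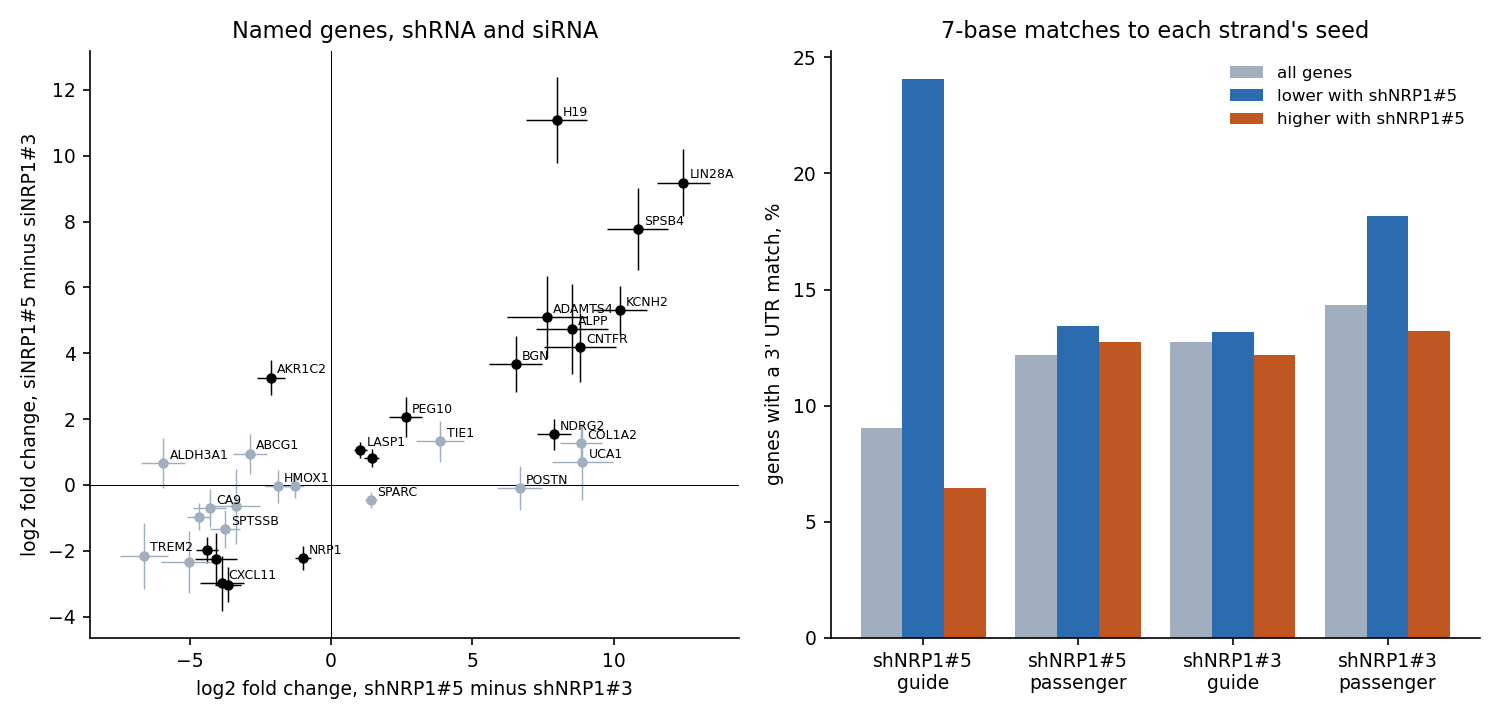
Left, log2 fold changes of the named genes between the hairpins (horizontal axis) and between the siRNAs (vertical axis) in SUM159PT, with bars for standard errors and black points for an adjusted p under 0.05 between the siRNAs; H19 and LIN28A lie high on both axes and UCA1, COL1A2 and POSTN near 0 on the vertical one. Right, the percent of genes with a 3′ UTR match to the seed of each strand, for all genes, lower genes and higher genes; the blue bar of the shNRP1#5 guide stands at 24.1% beside 9.05% of all genes.

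In MDA-MB-231 cells with the same hairpins, 578 of 23416 genes (2.47%) differed between shNRP1#5 and shNRP1#3, 139 higher and 439 lower, in a fit of all 52 samples. One library, MDA-MB-231 shNRP1#3 replicate 3, stood apart, with HS578T markers at a median of 1.94% of their HS578T level and none of the 39 at 0, and without it 191 genes (0.818%) differed. Of the 1747 genes called in SUM159PT, 114 (6.53%) were called in the same direction in MDA-MB-231, which was 21.9% of the MDA-MB-231 calls tested in both, and 39 in the opposite direction. Without that library these were 56 and 9. The difference between the lines was called in 1042 genes (4.45%), and in 651 (2.79%) without that library.

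NRP1 was among the genes that differed between the lines. In MDA-MB-231 it averaged 63.4 CPM with shNRP1#3, 84.9 CPM with shNRP1#5 and 177 CPM with shNT, a log2 fold change of 0.42 between the hairpins, so that the difference between the lines was -1.44 ± 0.35 (adjusted p = 0.0089, and 0.0181 without the library). UCA1 was higher with shNRP1#5 in both lines, by 8.88 in SUM159PT and by 3.42 in MDA-MB-231 (adjusted p = 0.00485, and 0.0624 without the library). TIE1, an endothelial receptor kinase, was higher by 3.86 and by 2.41 (0.00523, and 0.0412). In SUM159PT it stood at 0.215 to 0.528 CPM with shNRP1#5, at no more than 0.0568 CPM with shNRP1#3 and at 0.347 to 0.638 CPM with shNT. There TIE1 was lower with shNRP1#3 than with shNT by 4.39 on the log2 scale (adjusted p = 0.0114 in edgeR). CXCL11 was lower by 3.86 and 3.10 (0.0431, and 0.0881), and the cholesterol transporter ABCG1 by 2.88 and 2.50 (0.017, and 0.103). The transcript ENSG00000289850 (0.0144, and 0.109) and KRT14 (0.0477, and 1) completed the 6 genes chosen for the same direction in both lines.

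COL1A2, POSTN and BGN were called in opposite directions in the lines, but the MDA-MB-231 side rested on the library that stood apart. COL1A2 stood at 0.562, 0.731 and 102 CPM in replicates 1, 2 and 3 of MDA-MB-231 shNRP1#3, BGN at 0.0624, 0.0447 and 29.7 CPM, and POSTN at 0, 0.0447 and 8.09 CPM. Without replicate 3 the adjusted p of the MDA-MB-231 difference was 0.579 for COL1A2, 0.912 for BGN and 1 for POSTN. The difference between the lines was then 10.47 for COL1A2 (adjusted p = 2.26e-06), 8.59 for BGN (0.334) and 7.53 for POSTN (0.512). LIN28A averaged no more than 0.0369 CPM in any of the MDA-MB-231 shRNA groups.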

How the data were processed

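RNA was sequenced as stranded, poly(A)-selected libraries. The authors trimmed reads with Trim Galore 0.6.5 after FastQC 0.11.9, aligned them to GRCh38 with STAR 2.7.2b and quantified genes and transcripts with RSEM 1.3.3. They deposited expected counts (estimated counts, not scaled for depth and not whole), TPM, and the isoform percent of each transcript within its gene. All 52 samples were assigned by label, and 0 columns were left without a sample.

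Here expected counts per gene were rounded and tested with edgeR 4.0.16 in R 4.3.3 (filterByExpr, TMM scaling, robust quasi-likelihood test) in a model of the 17 SUM159PT samples with 6 group means. Benjamini-Hochberg adjustment ran over all 20067 genes tested, a gene was called at an adjusted p under 0.05, and tests were two-sided. Fold changes are given on the log2 scale with standard errors, and levels as TMM-scaled CPM. A second model of all 52 samples with 18 group means gave the MDA-MB-231 values. NRP1 transcripts were tested by exact permutation on log2(TPM + 0.1), and the isoform percent deposited by the authors on its own scale. The code was tested on simulated data, with 50 genes changed at each size. Of these, 8 were called at a 2-fold and 33 at a 4-fold change, none in the wrong direction, and 5 unchanged genes were called. A gene not called here may therefore still differ.

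Genes were named by rule. These were NRP1, the 10 highest and 10 lowest fold changes among called genes with a symbol, 5 CPM or more in the higher group and no overlap, the 8 most abundant called genes with a log2 fold change of at least 1 in size, up to 4 members with the smallest p in each of 32 lists (627 genes, 592 tested) with any other member a count is about, and, among genes called in both lines, the 6 largest with one direction and the 3 largest with opposite directions. The members, the lists and the comparison were chosen with earlier results of these data known. CYBRD1, KDM1B and the seed letters were chosen after values had been seen. Target sites were located in GENCODE 44 transcripts on GRCh38, which is not the release the authors used, and 3′ UTRs were read from the same transcripts. Replicates are consecutive passages, and expected counts ranged from 33144200 to 57628877 in the 6 libraries.

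Alternatives were RLE size factors, no filter on low counts, a replicate block, the 6 samples alone, leaving out each library, and DESeq2 1.42.0. The fit of protein-coding genes alone and the fits without MDA-MB-231 shNRP1#3 replicate 3 were chosen after seeing the data. One gene of the named set is not reported here.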

Additional observations from a re-analysis of the deposited data

Results flagged for a closer look

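Of the genes named by rule, 20 differed in their shNRP1#5 against shNRP1#3 log2 fold change between SUM159PT and MDA-MB-231, by the interaction test in the fit of all 52 samples. The differences, SUM159PT minus MDA-MB-231, were -1.44 for NRP1, 11.9 for LIN28A, 10.9 for KCNH2, 5.47 for UCA1, 16.2 for COL1A2, 8.06 for CNTFR, 8.78 for ALPP, 12.3 for H19, 6.31 for NDRG2, 11.7 for ADAMTS4, 3.97 for SPARC, 13.9 for POSTN, 16.1 for BGN, 1.4 for KRT8, 3 for PEG10 and 0.914 for LASP1. They were -6.62 for TREM2, -6.52 for ALDH3A1, -4.11 for RTN1 and -2.18 for CEMIP. Without MDA-MB-231 shNRP1#3 replicate 3, the library with HS578T markers, 11 of these were no longer called and the other 9 were. Of the 11, the difference stayed near its size for LIN28A (10.70, adjusted p = 0.0587), CEMIP (-2.40, 0.0561), KRT8 (1.38, 0.104) and LASP1 (0.94, 0.0703). It was smaller for KCNH2 (7.49, adjusted p = 1), CNTFR (4.39, 1), H19 (5.31, 0.93), ADAMTS4 (9.04, 0.118), SPARC (2.09, 0.13), POSTN (7.53, 0.512) and BGN (8.59, 0.334).

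Between shRNA and siRNA in SUM159PT, 13 of the named genes differed in the same contrast by the interaction test in the SUM159PT fit. The differences, shRNA minus siRNA, were 4.92 for KCNH2, 8.21 for UCA1, 7.57 for COL1A2, 6.35 for NDRG2, 1.86 for SPARC and 6.78 for POSTN. They were -6.6 for ALDH3A1, -3.7 for TSPAN7, -2.41 for RTN1, -3.59 for CA9, -2.39 for SPTSSB, -5.38 for AKR1C2 and -3.81 for ABCG1. With 2 siNRP1#5 samples, these rest on fewer libraries than the shRNA values.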

How the results depend on the processing

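None of the gene counts, NRP1 and transcript values or named SUM159PT fold changes between the hairpins changed direction under the alternatives run for them. Without MDA-MB-231 shNRP1#3 replicate 3, uncalled differences between the lines turned for AKR1C2 (0.62 to -0.99) and KRT14 (2.12 to -2.78), as did uncalled MDA-MB-231 fold changes such as those of H19 (-4.34 to 2.65) and KCNH2 (-0.67 to 2.71). DESeq2 gave 1300 higher and 1049 lower genes, RLE size factors 1016 and 707, the 6 samples alone 1040 and 829, and protein-coding genes alone 914 and 743. Without the filter on low counts the lower genes numbered 1159. As a percentage of the genes tested with the filter, calls against shNT came to 4.14% for shNRP1#3 and 10.2% for shNRP1#5 without the filter, and to 3.65% for shNRP1#3 in DESeq2. Leaving out 1 library gave 519 to 899 higher and 366 to 578 lower genes, an NRP1 log2 fold change of -1.13 to -0.72 that was not called in any of the 6 fits, 0.483 to 1.03% of genes for shNRP1#3 and 2.31 to 6.08% for shNRP1#5 against shNT, and 651 to 1222 genes for the difference between the lines, the lowest without MDA-MB-231 shNRP1#3 replicate 3. These fits have fewer samples. The transcript differences kept their sign, at -0.98 to -0.46 for transmembrane and -2.99 to -1.82 for soluble transcripts, and -16.0 to -11.1 points for the share of ENST00000374822. At this depth a gene with no count in a group, such as LIN28A, has only a lower bound for its fold change.

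Replicate numbers gave no regular pairing of the hairpins. The correlations of same-numbered deviations from the group means were -0.196, -0.00141 and 0.47 for replicates 1, 2 and 3. Those between unlike numbers ranged from -0.426 to 0.485. With the replicate block, 1174 genes were higher and 1028 lower, NRP1 stood at -0.97 (adjusted p = 0.0101), 2.25% of genes were called for shNRP1#3 against shNT, and the difference between the lines was called in 1063.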
